A study of Mus musculus with 3 samples.

Results

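Macrophages of the stomach muscle that carried Ccr2 without Lyve1 were examined in 3 single-cell RNA libraries of CD45+ cells. CD45 is a surface protein of leukocytes, and the cells came from the muscle layer of the stomach (the gastric muscularis propria) of female C57bl/6 mice labelled NonDiabetic, dissociated for 2 hours at 37 °C with collagenase type II. All 3 libraries belong to this 1 group, the age of the mice is not given in the labels, and diabetic samples were not analysed here. The series concerns which macrophages the muscle of the stomach holds and where they may come from.

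A barcode was taken as a Ccr2-positive macrophage by its counts of unique molecular identifiers (UMIs), each of which stands for 1 captured RNA molecule. It needed at least 2000 UMIs, at most 15% mitochondrial UMIs, at least 10 UMIs of C1qa, C1qb and C1qc together, at least 2 of Ccr2, none of Lyve1 or Timd4 and at most 1 of Cx3cr1. Members were selected on these counts alone. The rule found 33, 85 and 71 barcodes in replicates 1, 2 and 3, or 189 of the 1504 barcodes that met the same depth, mitochondrial and C1q limits (C1q-high barcodes), and 189 of 5735 barcodes in all. They made up 16.8% of C1q-high barcodes in replicate 1 (exact 95% interval 11.9 to 22.8%), 13.4% in replicate 2 (10.8 to 16.3%) and 10.6% in replicate 3 (8.34 to 13.1%), a mean of 13.6% ± 3.14 (SD, n = 3). The intervals of all 3 libraries overlapped. They cover counting error only, and cut-offs in whole UMIs admit a barcode more easily the deeper it is. With the gate applied after every barcode was thinned to 2000 UMIs, the shares were 18.6% in replicate 1 (31 of 167, exact 95% interval 12.97 to 25.3%), 7.50% in replicate 2 (41 of 547, 5.43 to 10.0%) and 6.67% in replicate 3 (41 of 615, 4.83 to 8.94%). At equal depth the interval of replicate 1 therefore lay above those of replicates 2 and 3.

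They were set against 3 other gates. The other C1q-high barcodes numbered 1315 and still included barcodes with Ccr2. Cx3cr1-positive Lyve1-negative macrophages, 137 barcodes, had at least 2 UMIs of Cx3cr1, at most 1 of Ccr2 and none of Lyve1 or Timd4. Lyve1-positive macrophages, 654 barcodes, had at least 2 UMIs of Lyve1 and at most 1 of Ccr2. Lymphoid barcodes, 430 with fewer than 10 C1q UMIs, served as the background for genes that lymphocytes should lack.

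Macrophages of the gut wall come from embryonic precursors and from blood monocytes. CCR2 is the chemokine receptor by which monocytes leave the bone marrow and enter tissue, and its RNA falls as monocytes mature into macrophages, while the fractalkine receptor gene Cx3cr1 and the complement C1q genes are known from mature gut macrophages. Lyve1, a hyaluronan receptor, and Timd4, a receptor for phosphatidylserine, mark macrophages that maintain themselves in many mouse tissues with little monocyte input. In the gut muscle such resident cells lie beside enteric neurons, vessels and muscle cells.

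Lyz1, Fn1, Ear2 and Mmp12 were given as the markers of these macrophages and had been chosen with the data known, so their levels are described here without a test. They do count among the called genes and medians of the gene lists further below. Lyz1 encodes the P lysozyme, a bacterial cell wall hydrolase, and Ear2 an eosinophil-associated ribonuclease. Both belong to families of near-identical genes. The bases upstream of their starts are shown because Lyz1 and its neighbour Lyz2, the M lysozyme of all macrophages, differed in where they were found although they lie side by side and resemble each other. The 250 bases before the start are RefSeq's, from GRCm38.p6, printed 5′ to 3′ on the gene's own strand. Capitals mark matches to TTGCNNAA, a form of the motif of C/EBP factors, which act in myeloid cells, searched on both strands.
Lyz1 (chr10:117292869-117293118, minus): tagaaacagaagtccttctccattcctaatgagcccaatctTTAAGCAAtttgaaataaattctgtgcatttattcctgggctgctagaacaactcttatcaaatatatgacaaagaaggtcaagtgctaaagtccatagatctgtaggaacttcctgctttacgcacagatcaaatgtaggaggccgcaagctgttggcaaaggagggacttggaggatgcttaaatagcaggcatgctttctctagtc
Lyz2 (chr10:117282273-117282522, minus): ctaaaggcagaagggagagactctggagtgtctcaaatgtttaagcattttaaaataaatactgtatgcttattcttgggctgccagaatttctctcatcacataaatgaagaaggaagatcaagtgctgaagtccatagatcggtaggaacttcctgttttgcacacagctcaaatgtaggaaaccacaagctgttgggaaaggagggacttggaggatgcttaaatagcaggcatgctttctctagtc
Ear2 (chr14:44102404-44102653, plus): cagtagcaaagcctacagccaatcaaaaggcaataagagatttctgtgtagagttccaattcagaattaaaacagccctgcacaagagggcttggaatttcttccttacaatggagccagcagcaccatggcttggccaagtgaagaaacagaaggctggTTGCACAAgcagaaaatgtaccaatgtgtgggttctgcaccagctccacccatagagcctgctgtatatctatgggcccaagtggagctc

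The Lyz1 and Lyz2 windows were identical at 79.4% of aligned positions, and their last stretch before the start was nearly the same. Lyz1 held 1 match to the C/EBP motif on the strand opposite to the printed one, Ear2 held 1 on the printed strand and Lyz2 held none. Of all 32851 promoter windows of this length 9.56% held at least 1. The core GAGGAA of the PU.1 motif, likewise searched on both strands, was in none of the 3 windows and in 23.3% of all windows. Such matches describe the letters only. The reference transcripts Lyz1-201 and Lyz2-201 were 92.0% identical, and 93.8% over their last 300 bases, where a 3′ kit reads. Ear2-201 was 96% identical to Ear1-201 and 98.7% over the last 300 bases, and 89.0% identical to Ear10-201. How reads that fit several genes were counted is not given in the sources used here, so the split between such copies is uncertain. In Ccr2-positive macrophages Ear1 had 0, 0.821 and 0 counts per 1000000 UMIs (CPM) and Ear10 and Ear6 had none.

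The genes of the gate and its markers are all annotated as protein-coding, and the counts cover whole genes. On GRCm38, Ccr2 (ENSMUSG00000049103) spans chr9:124101950-124113557 on the plus strand and Lyz1 (ENSMUSG00000069515) spans chr10:117287797-117292868 on the minus strand. Fn1 (ENSMUSG00000026193) spans chr1:71585520-71653200, minus, Ear2 (ENSMUSG00000072596) chr14:44102654-44103534, plus, and Mmp12 (ENSMUSG00000049723) chr9:7344381-7369499, plus.

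The libraries held 6777422, 13336484 and 11017170 UMIs, and 2675 barcodes passed the depth and mitochondrial limits. Median depth was 9083, 13277 and 9638 UMIs in Ccr2-positive macrophages of replicates 1, 2 and 3, against 8134, 9174 and 8435 in the other C1q-high barcodes. Ccr2-positive macrophages held fewer C1q UMIs, with medians of 32, 77 and 53 against 63, 81 and 100, and a lower mitochondrial share, with medians of 3.0%, 2.13% and 2.11% against 3.52%, 3.22% and 2.91%. Replicates 2 and 3 shared 33 barcode sequences, replicates 1 and 3 shared 1 and replicates 1 and 2 none, and 4 Ccr2-positive macrophages were among the shared ones. Nothing in the labels states that each library had mice of its own, so the p-values rest on a spread between 3 libraries that may be technical only. Gates were cut from the same barcodes whose RNA was then compared, so a gene that accompanies a gate gene differs partly through the gate, and p-values rank genes between such gates. The 3 comparisons share the same Ccr2-positive macrophages, and the other C1q-high barcodes contain both narrower gates.

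The 4 markers were higher in Ccr2-positive macrophages than in the other C1q-high barcodes of every library, and replicate 1 stood out for Mmp12. Lyz1 had 877, 897 and 431 CPM in Ccr2-positive macrophages of replicates 1, 2 and 3, against 84.4, 71.1 and 73.4 CPM in other C1q-high barcodes, a log2 fold change of 3.36 ± 0.20 (SE, n = 3 libraries). Fn1, which encodes the matrix protein fibronectin, had 1637, 1049.8 and 615 CPM, against 294, 91.5 and 67.4 CPM in the others (3.23 ± 0.18). Neither gene's values overlapped between the gates. Ear2 had 610.0, 378 and 260.2 CPM in Ccr2-positive macrophages, against 99.981, 12.3 and 23.4 CPM in the others (3.80 ± 0.33, and 3.19 without replicate 2). Mmp12, the macrophage elastase, had 1192, 124 and 81.3 CPM, against 142, 44.5 and 48.3 CPM (2.02 ± 0.34, and 1.33 without replicate 1). Ear2 did not overlap either, whereas Mmp12 did, because the 2 lower Ccr2-positive values lay below that of the others in replicate 1.

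The other C1q-high barcodes with Ccr2 lowered these differences. With only barcodes of 0 Ccr2 UMIs on the other side, the log2 fold change was 5.58 for Lyz1, 5.79 for Fn1, 6.20 for Ear2 and 3.36 for Mmp12. Against Cx3cr1-positive macrophages, with Lyz1 at 6.38, 7.04 and 53.9 CPM and Fn1 at 6.38, 44.6 and 8.98 CPM, it was 4.55 ± 0.48 and 5.51 ± 0.36. Ear2 had 140.4, 0 and 0 CPM in Cx3cr1-positive macrophages, so replicate 1 alone held its RNA there. In Lyve1-positive macrophages Lyz1 had 2.9, 17 and 13.6 CPM, Fn1 17.4, 10.2 and 4.91 CPM, Ear2 2.9, 1.18 and 3.02 CPM and Mmp12 2.9, 7.49 and 2.27 CPM, all below the Ccr2-positive values of the same library.

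The gate genes themselves, which chose the barcodes, had the levels the rule sets. Ccr2 had 1437, 600.5 and 755 CPM in Ccr2-positive macrophages, against 855, 174 and 199 CPM in other C1q-high barcodes, 38.3, 25.8 and 15 CPM in Cx3cr1-positive, 5.81, 7.49 and 3.02 CPM in Lyve1-positive and 891, 392 and 481 CPM in lymphoid barcodes. Cx3cr1 had 17.5, 17.2 and 31.2 CPM, against 599, 146 and 307 CPM in the others. C1qa, a chain of the complement starter C1q, had 1649.9, 2198 and 2399 CPM, against 3329, 3669 and 4709 CPM, and C1qb had 1989.9, 3079 and 3187 CPM, against 2584, 3498 and 4499 CPM. C1qa lay lower in Ccr2-positive macrophages of every library, and C1qb overlapped.

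**Figure D1:**
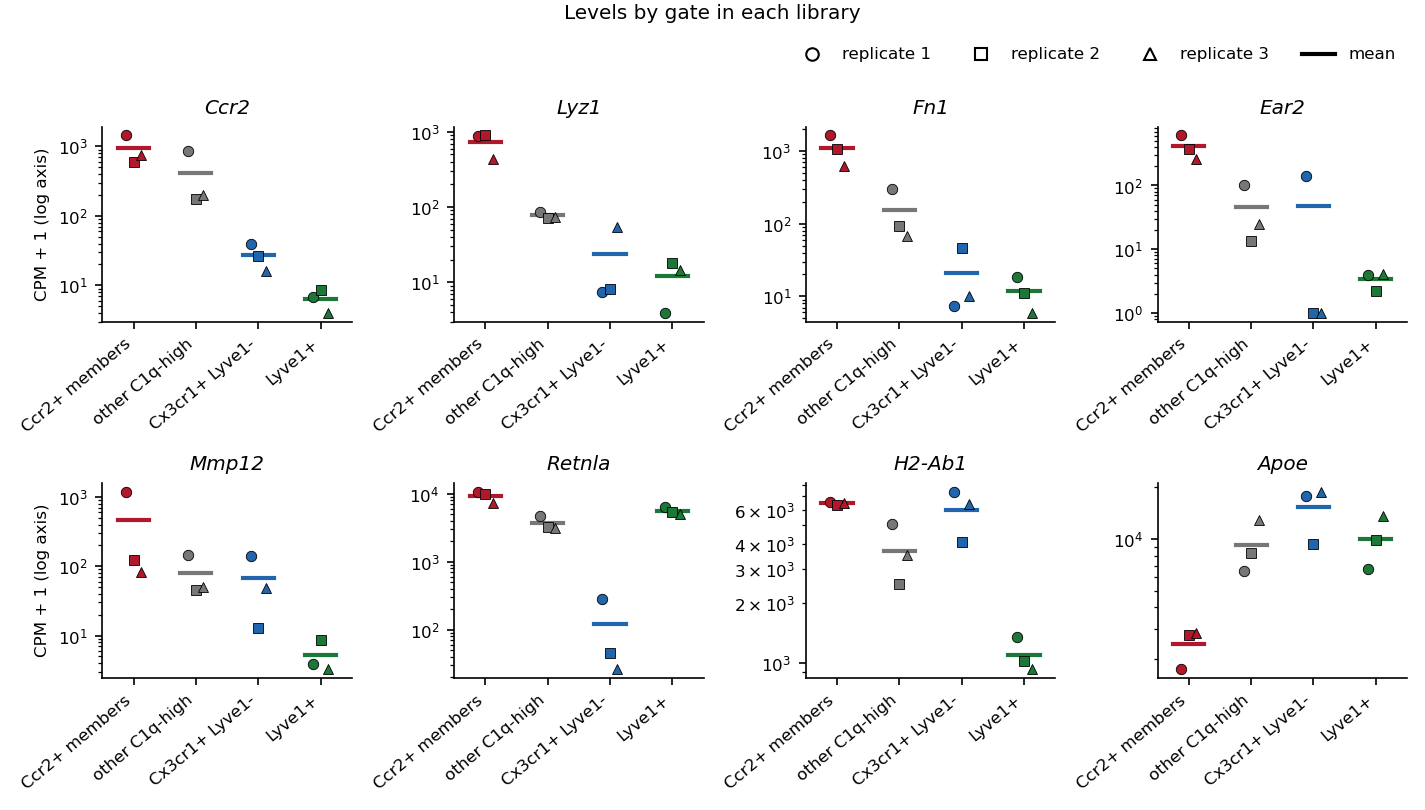
CPM plus 1 on a log axis for 8 genes, with 1 point for each of the 3 libraries (marked by shape) and a bar at the mean, in Ccr2-positive macrophages, other C1q-high barcodes, Cx3cr1-positive Lyve1-negative and Lyve1-positive macrophages. Lyz1, Fn1 and Ear2 are highest in Ccr2-positive macrophages of every library, Retnla is high there and in Lyve1-positive but not in Cx3cr1-positive macrophages, and the points of H2-Ab1 overlap between Ccr2-positive and Cx3cr1-positive macrophages.

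At equal depth each marker was found in a minority of the barcodes. With every barcode thinned to 2000 UMIs, which left out none, Lyz1 was found in 25.3% ± 4.82 of Ccr2-positive macrophages (33.1% unthinned) and 4.5% ± 1.03 of other C1q-high barcodes (11% unthinned), with 0.458% of lymphoid barcodes as background. Fn1 was found in 38.0% ± 8.57 (56.2% unthinned) and 7.95% ± 5.34 (15.1%), with 0.533% of lymphoid barcodes. Ear2 was found in 27.2% ± 6.10 (42.7%) and 4.25% ± 4.82 (6.43%), with 0.714% of lymphoid barcodes. Each of the 3 shares lay above the lymphoid share in every library. Mmp12 was found in 36.4%, 5.88% and 7.04% of Ccr2-positive macrophages of replicates 1, 2 and 3, against 6.75%, 3.27% and 3.16% of the others, and in 0 of 430 lymphoid barcodes, so its share was high in replicate 1 alone. Lymphoid barcodes had median depths of 8858, 6818 and 6508 UMIs before thinning.

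At that depth, 86 of the 189 Ccr2-positive macrophages held no UMI of any of the 4 markers, 46 held 1 marker, 26 held 2, 31 held 3 and 0 held 4. Among the other C1q-high barcodes 1139 of 1315 held none, and among lymphoid barcodes 423 of 430. The share of Ccr2-positive macrophages without a marker was 21.2%, 44.7% and 57.7% in replicates 1, 2 and 3. The gate on Ccr2 therefore took in barcodes with and without the marker genes, in proportions that differed between libraries. Marker RNA was concentrated: the 19 barcodes richest in Lyz1 held 73.3% of its UMIs, and 125 of 189 held none at full depth. For Mmp12 the 19 richest held 92.3% and 152 held none, for Fn1 they held 55.3% and 86 held none, and for Ear2 they held 59.7% and 115 held none.

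**Figure D2:**
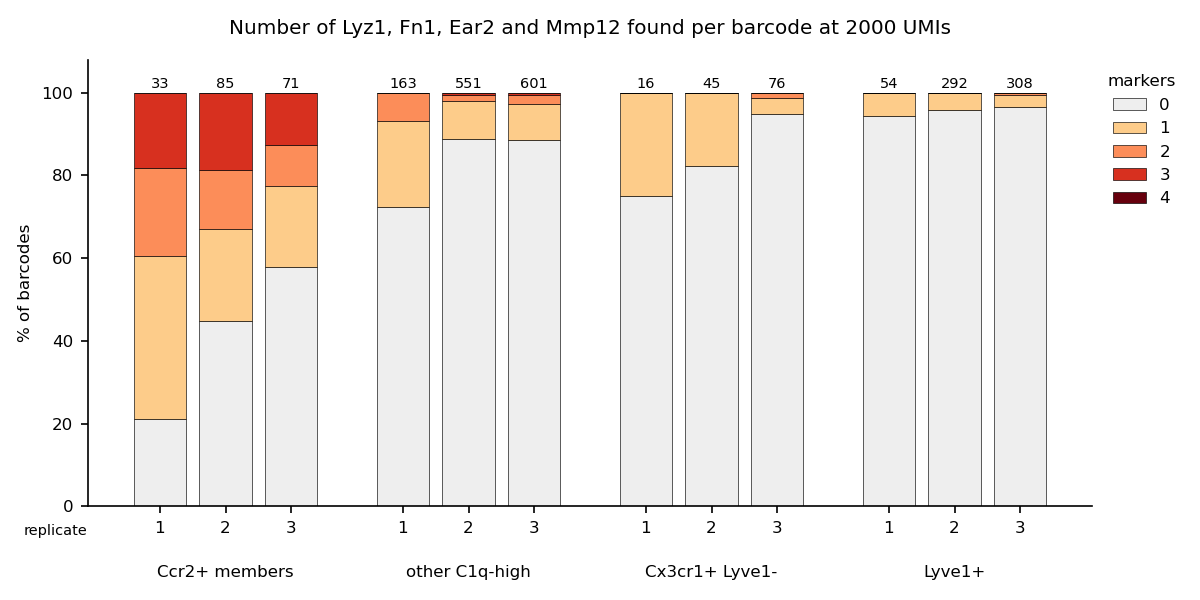
Share of barcodes in percent that held 0, 1, 2, 3 or 4 of Lyz1, Fn1, Ear2 and Mmp12 after thinning to 2000 UMIs, as stacked bars for each gate and replicate, with the number of barcodes above each bar. Barcodes with 2 or more markers are 39.4%, 32.9% and 22.5% of Ccr2-positive macrophages in replicates 1, 2 and 3, against 6.75%, 2.00% and 2.83% of other C1q-high barcodes.

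Lyz1, Fn1 and Ear2 were often found together in 1 barcode, while Mmp12, the rarest of the 4, showed no such pattern with Lyz1 or Fn1. At 2000 UMIs, 39 Ccr2-positive macrophages held both Lyz1 and Fn1, with a log2 odds ratio of 3.38 ± 0.96 (SD over libraries, 0.5 added to each count). Fn1 and Ear2 were found together in 36 (2.79 ± 0.95) and Lyz1 and Ear2 in 24 (1.84 ± 1.30). These 3 pairs had a positive ratio in each of the 3 libraries. Lyz1 and Mmp12 were found together in 4 barcodes (-0.34 ± 0.55) and Fn1 and Mmp12 in 8 (0.07 ± 1.86), with signs that differed between libraries. Ear2 and Mmp12 were found together in 8 (0.78 ± 1.10), with a ratio above 0 in each library. Depth was equal after thinning, but barcodes of a library share its free RNA, and the ratios are given as a description.

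Splitting the Ccr2-positive macrophages by the number of markers found at 2000 UMIs gave sets with unlike RNA in genes that the split did not use. The sets were cut from the data and are described without a test. Retnla, which encodes the secreted protein RELM-alpha, had 17173, 20708 and 18345 CPM in the 57 barcodes with 2 or more markers of replicates 1, 2 and 3, against 2882, 1285 and 99.5 CPM in the 86 with none. The 2 sets of values lay far apart in every library. Ccl6, a CC chemokine, had 2413 ± 383 against 499 ± 157 CPM (SD, n = 3), the lipoprotein lipase gene Lpl 1185 ± 1032 against 109 ± 72.9 CPM, and the calcium-binding protein gene S100a6 3155 ± 879 against 1478 ± 167 CPM. Cfp, which encodes properdin of the complement system, had 783 ± 31.5 against 187 ± 87.4 CPM. These genes were higher where the markers were found.

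Other genes were lower where the markers were found. Apoe, an apolipoprotein, had 728 ± 352 CPM in barcodes with 2 or more markers, against 4199 ± 855 CPM in those with none. Stab1, the scavenger receptor stabilin-1, had 11.6 ± 10.5 against 195 ± 131 CPM, the chemokine Pf4 168 ± 128 against 1022 ± 170.4 CPM, and C1qa 1403 ± 253 against 2895 ± 271 CPM. Lyz2, the M lysozyme of all macrophages, went the other way, with 7007, 8648 and 8202 CPM in barcodes with 2 or more markers and 2920.0, 4920.4 and 5104 CPM in those with none. H2-Ab1, an MHC class II beta chain, differed little at 6551 ± 614 against 6021 ± 798 CPM. Il1b, which encodes interleukin 1 beta, had 2137, 1804 and 109 CPM in barcodes with 2 or more markers and 615, 4788 and 1645 CPM in those with none, with no order common to the libraries. Cd209a, a lectin known from dendritic cells, was highest in the 46 barcodes with 1 marker, at 300.1 ± 134 CPM, against 25.9 ± 18.9 CPM with 2 or more and 74.7 ± 71.5 CPM with none. Median depth in the sets was 9083, 15645 and 11219 UMIs with 2 or more markers, and 4845, 12446 and 9430 UMIs with none.

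**Figure D3:**
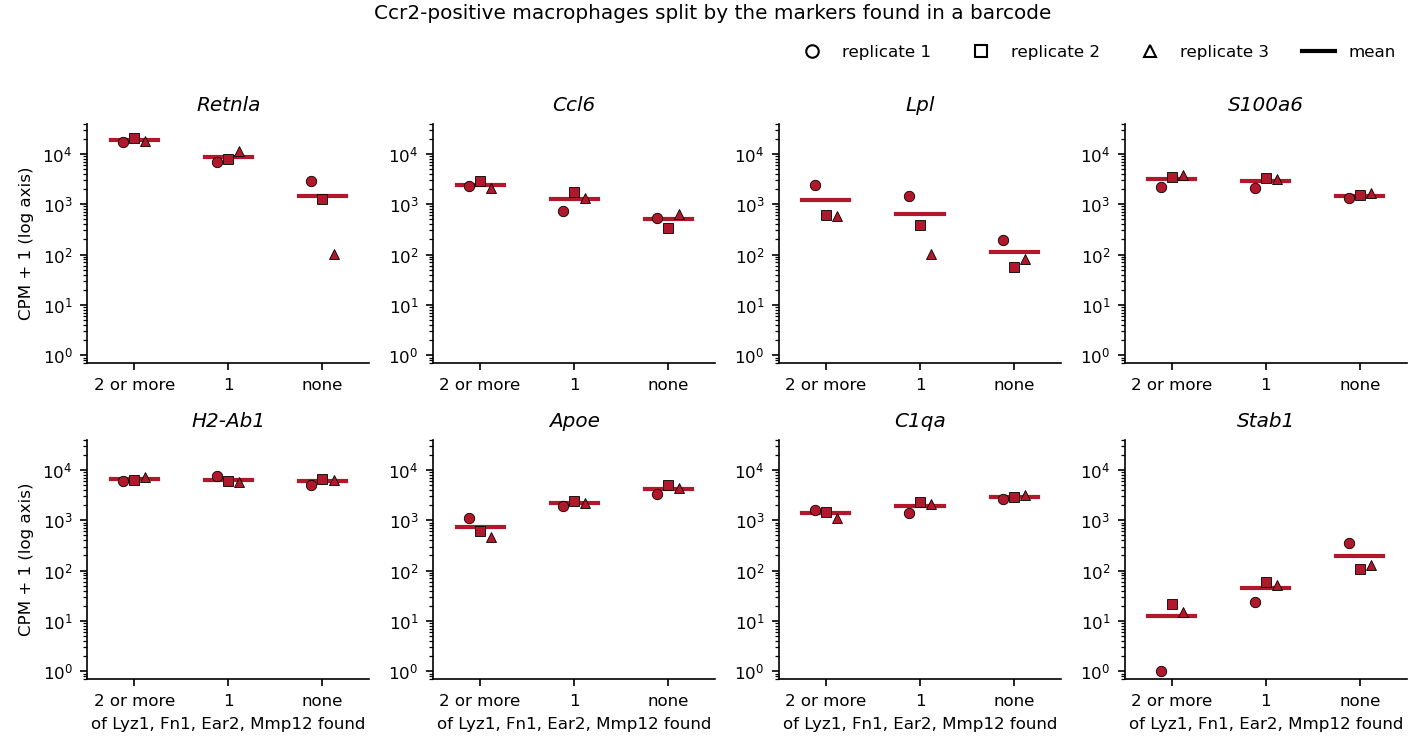
CPM plus 1 on a log axis for 8 genes in Ccr2-positive macrophages that held 2 or more, 1 or none of Lyz1, Fn1, Ear2 and Mmp12 at 2000 UMIs, with 1 point per library and a bar at the mean. Means of Retnla, Ccl6, Lpl and S100a6 are higher and those of Apoe, C1qa and Stab1 lower where more markers were found. C1qa of replicate 1 is at 1375 CPM with 1 marker and 1629 CPM with 2 or more. H2-Ab1 has means between 6021 and 6551 CPM in the 3 sets.

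Between all Ccr2-positive macrophages and the other C1q-high barcodes, the called genes of secreted defence, monocytes, MHC class II and glycolysis were mostly higher in Ccr2-positive macrophages, and those of the resident macrophage programme, iron handling and complement mostly lower. Summed counts per library were compared with edgeR's quasi-likelihood test, in which each library formed a block. P-values were adjusted by Benjamini and Hochberg's method over all genes that passed the filter. These were 8415 genes and 20 gate or mitochondrial genes, and the counts of calls leave the 20 out. A gene is called at an adjusted p under 0.05. Of the 8415 genes 1413 (16.8%) were called, 772 (9.17%) higher and 641 (7.62%) lower in Ccr2-positive macrophages, and 24.5% had values that did not overlap between the gates in the 3 libraries. Without the library block 515 genes were called, and 93 when barcodes with 3 or more UMIs of other lineages were left out, which kept 44 of the 189 Ccr2-positive macrophages. These UMIs were summed over whole lists of lymphoid, mast, fibroblast and smooth muscle genes, whatever the depth. The 44 held 21742, 181764 and 163686 UMIs in replicates 1, 2 and 3. A narrower list of lymphoid, mast and fibroblast genes marked 2 of the 189. Whether the loss of calls came with the fewer UMIs was not tested. Among the calls lost in those 44 were Apoe (-0.84, adjusted p = 0.0984), H2-Ab1 (0.49, adjusted p = 0.25) and Cd74 (0.40, adjusted p = 0.343). The counts for lists are set beside the shares of all genes, and gate genes belong to no list. The filter on low counts admits a gene that is present in the libraries of 1 gate alone. Such a gene could hardly be called the other way, so the directions within a list and among the largest changes are a description. In all 3 comparisons this is stated below for some genes only, and others with low levels in 1 gate entered likewise. The median log2 fold change of all genes was 0.00.

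Of 17 listed genes of secreted host defence 7 were tested, 5 higher and 0 lower, with a median log2 fold change of 1.51. Of these 5, 2 were the markers Lyz1 and Ear2. Retnla had 10742, 9945 and 7367 CPM in Ccr2-positive macrophages, against 4653, 3295 and 3159 CPM in other C1q-high barcodes (1.51 ± 0.09, adjusted p = 1.56e-06). Its values did not overlap, and its log2 fold change was 0.52 when barcodes with any number of Cx3cr1 UMIs were admitted to the gate. Ccl6 had 1355, 1592 and 1193 CPM, against 726, 1090.5 and 1106 CPM (0.68 ± 0.14, adjusted p = 0.00597). Its call was lost without the library as a block and without replicate 2 (adjusted p = 0.0894), and its sign turned with any number of Cx3cr1 UMIs admitted (-0.17). Lyz2, in contrast to Lyz1, was not called, with 4159.8, 7019.8 and 6008 CPM against 3460.4, 5259 and 6956 CPM (0.32 ± 0.11, adjusted p = 0.0603).

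Of 22 listed monocyte genes 14 were tested and 10 called, 9 higher and 1 lower, with a median of 1.69. S100a6 had 2029.9, 2646 and 2536 CPM in Ccr2-positive macrophages, against 941, 744 and 680.0 CPM in the others (1.78 ± 0.14, adjusted p = 1.94e-05), and its relative S100a4 1175, 1491 and 1397 against 613, 450.0 and 352 CPM (1.73 ± 0.17). Napsa, an aspartic protease, had 90.0, 77.2 and 90.8 against 24.7, 18.8 and 18.1 CPM (2.26 ± 0.18). Clec4e, which encodes the glycolipid receptor Mincle, had 87.5, 307 and 122 against 26, 85.6 and 19.2 CPM (2.25 ± 0.19; adjusted p = 0.0635 without the library block). F10, coagulation factor X, had 65, 23 and 10.8 against 3.25, 2.23 and 1.85 CPM (3.56 ± 0.39, adjusted p = 0.000141), and entered the test through the Ccr2-positive side alone. None of these 5 genes overlapped between the gates.

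Genes that define classical monocytes were scarce in Ccr2-positive macrophages. Ly6c2, the Ly6C antigen of such monocytes, had 0, 5.75 and 1.36 CPM and was too low for the test. Chil3, a chitinase-like protein of monocytes, was found in 7 of the 189 barcodes and not called (2.15 ± 0.67, adjusted p = 0.0505), with 55, 14.8 and 35.2 CPM against 55.2, 1.49 and 1.29 CPM. The 1 lower gene of the list was F13a1, coagulation factor XIII A, which is also abundant in resident macrophages, with 300.0, 316 and 243 against 1082, 1601 and 1418 CPM (-2.09 ± 0.14, adjusted p = 5.24e-06). Summed over the whole monocyte list, Ccr2-positive macrophages had 5877 to 6688 CPM and the others 3904 to 4328 CPM. S100a6 and S100a4 made up most of the Ccr2-positive sum in each library. The rest of the list, F13a1 included, summed lower in Ccr2-positive macrophages than in the others of each library.

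Of 19 matrix and protease genes, 7 were higher and 5 lower (median 0.08), Fn1 and Mmp12 among the higher. Adam8, a membrane metalloprotease of leukocytes, had 152, 140.5 and 58.3 CPM in Ccr2-positive macrophages, against 46.7, 23.4 and 11.1 CPM in the others (2.42 ± 0.20, adjusted p = 2.23e-05). Plaur, the urokinase receptor, had 135, 269 and 152 against 76, 113 and 41 CPM (1.51 ± 0.19; adjusted p = 0.0567 without the library block). Mmp19, a matrix metalloprotease, rose by 2.18 ± 0.32 on the log2 scale, a call lost without replicate 2 (1.67, adjusted p = 0.0514). Timp2, a metalloprotease inhibitor, was lower at 290.0, 196 and 206 against 521, 535 and 645 CPM (-1.16 ± 0.16). The list held genes called in both directions.

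MHC class II genes were called in 9 of 13, all 9 higher (median 0.97). H2-Ab1 had 6575, 6310.1 and 6514 CPM in Ccr2-positive macrophages, against 5089, 2497 and 3525 CPM in the other C1q-high barcodes (1.03 ± 0.14, adjusted p = 0.000476), and was found in 97.7% ± 1.01 of barcodes against 71.2% ± 8.98 at 2000 UMIs (11.6% of lymphoid barcodes). Its level in Ccr2-positive macrophages was nearly the same in the 3 libraries. The lymphoid gate also admitted B cells, with B or plasma cell genes at 267, 10560 and 168 CPM in replicates 1, 2 and 3. The lymphoid share is therefore not a background for class II genes. Cd74, the invariant chain, had 18022, 21560.4 and 23136 against 13207, 9674 and 12774 CPM (0.99 ± 0.10). H2-DMb2, a chain of the peptide-loading protein H2-DM, rose most of the named class II genes, with 75, 42.7 and 32.5 against 10.4, 4.46 and 4.24 CPM (3.19 ± 0.25, adjusted p = 1.92e-05), and H2-DMb1 had 597, 709 and 622 against 384, 206 and 282 CPM (1.37 ± 0.18). H2-DMb2 entered the test through the Ccr2-positive side alone. Without the library block the calls of H2-Ab1 (adjusted p = 0.0632), Cd74 and H2-Eb1 were lost.

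The resident programme was lower in 21 of 22 tested genes and higher in 0, with a median of -2.86, where the gate had removed barcodes with Lyve1 or Timd4 from the Ccr2-positive side alone. Folr2, a folate receptor, had 5.00, 15.6 and 20.3 CPM in Ccr2-positive macrophages, against 129.8, 435 and 433 CPM in the others (-4.47 ± 0.20, adjusted p = 5.23e-07). Stab1 had 55, 64.9 and 82.7 against 416, 560.5 and 716 CPM (-2.90 ± 0.14), the chemokine Pf4 222, 537 and 675 against 1148, 2623 and 3034 CPM (-2.10 ± 0.10), and the mannose receptor Mrc1 1012, 763 and 636 against 2091, 2191 and 2043 CPM (-1.26 ± 0.13). Cbr2, a carbonyl reductase, and Fcna, a ficolin of innate immunity, fell by 3.69 ± 0.19 and 6.02 ± 0.27 on the log2 scale. No values of these genes overlapped. Admitting any number of Cx3cr1 UMIs moved Stab1 to -1.83 and Pf4 to -1.20.

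Genes of macrophages in general moved in both directions, 2 of 14 higher and 6 lower with a median of -0.03. Csf1r, the receptor for the growth factor CSF1, had 490.0, 517 and 514 CPM in Ccr2-positive macrophages, against 835, 1027 and 1077 CPM in the others (-0.78 ± 0.11, adjusted p = 0.000797). Adgre1, which encodes F4/80, had 185, 228 and 183 against 370.1, 394 and 420.2 CPM (-0.83 ± 0.13), and the apoptotic cell receptor Mertk 25, 31.2 and 32.5 against 90.2, 83.5 and 82.5 CPM (-1.32 ± 0.19). All 3 genes were present in Ccr2-positive macrophages of every library, at lower levels than in the others. Without the library block Csf1r and Adgre1 were not called (adjusted p = 0.0814 and 0.0603).

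Lipid and lysosome genes were called in 11 of 22, 5 higher and 6 lower (median 0.10). Lpl had 1672, 333 and 228 CPM in Ccr2-positive macrophages, against 249, 51.3 and 47.8 CPM in the others (2.74 ± 0.14, adjusted p = 8.25e-07), and overlapped because replicate 1 was high in both gates. Apoe had 1742, 2766 and 2832 against 6525, 8316 and 12822 CPM (-1.73 ± 0.10, adjusted p = 1.64e-06). The protease gene Ctsb (cathepsin B) was lower by 1.13 ± 0.11 and the tetraspanin Cd63 by 1.29 ± 0.14 on the log2 scale. Iron and haem genes were lower in 6 of 16 and higher in 0 (median -0.40). Among them were the copper oxidase Cp, at 10.00, 2.46 and 2.71 against 58.4, 87.4 and 109 CPM (-4.34 ± 0.38), and Slc40a1, the iron exporter ferroportin, at 2.5, 0 and 0 against 12.3, 25.7 and 50.2 CPM, 1 UMI in Ccr2-positive macrophages in all.

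Complement genes other than C1q were lower in 7 of 12 and higher in 2 (median -0.70). C4b, a component of the classical pathway, had 19.999, 9.86 and 16.3 CPM in Ccr2-positive macrophages, against 197, 265 and 401 CPM in the others (-4.23 ± 0.24, adjusted p = 1.56e-06). Cd55, which shields cells from complement, had 0 counts in Ccr2-positive macrophages and was at least 13.4-fold lower, and C6 at least 9.67-fold, against a floor of 3 counts over the 3 libraries; with genes at 0 put at their bounds, the median of the list was unchanged at -0.70. The 2 higher genes were Itgax, the integrin chain CD11c, with 120.0, 68.2 and 56.9 against 53.9, 12.5 and 20.9 CPM (1.87 ± 0.24; not called in thinned sums), and Cfp, which overlapped (0.43 ± 0.13, adjusted p = 0.0491).

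Growth factors and the receptor Nrp1, grouped as trophic genes, were lower in 4 of 11 and higher in 1 (median -0.79). Bmp2, which acts on enteric neurons in mice, had 57.5, 22.2 and 59.6 CPM in Ccr2-positive macrophages, against 156, 169 and 195 CPM in the others (-1.90 ± 0.25, adjusted p = 0.000408), and Pdgfc, a platelet-derived growth factor, 7.5, 5.75 and 5.42 against 29.2, 54.3 and 49.8 CPM (-2.85 ± 0.31). Vegfa, the endothelial growth factor, was the higher one at 70.0, 21.4 and 17.6 against 19.5, 9.49 and 2.03 CPM (1.97 ± 0.35; adjusted p = 0.122 without the library block). Efferocytosis genes were lower in 4 of 14 and higher in 1 (median -0.29), the lower ones being Mertk, the scavenger receptor Msr1, Cd93 and the integrin chain Itgb5, whose value was 0.06 with any number of Cx3cr1 UMIs admitted.

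Glycolysis genes were higher in 9 of 17 and lower in 1 (median 0.71). The lactate transporter Slc16a3 had 115, 75.6 and 33.9 CPM in Ccr2-positive macrophages, against 29.9, 22.7 and 12.2 CPM in the others (1.89 ± 0.19, adjusted p = 8.23e-05), and phosphofructokinase Pfkp 197, 170.0 and 115 against 106, 61.2 and 47.1 CPM (1.40 ± 0.15). Gapdh was at 675, 815 and 831 against 528, 501 and 558 CPM (0.71 ± 0.11; adjusted p = 0.097 without the library block). The 1 lower gene was Pfkfb3, which encodes a regulator of glycolytic flux (-1.91 ± 0.26). Libraries differed in these genes too, and in replicate 3 Slc16a3 of Ccr2-positive macrophages lay just above its level in the others of replicate 1.

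Inflammatory genes were called in 5 of 15, 4 higher and 1 lower (median 0.34). Il1b had 1195, 3595 and 1235 CPM in Ccr2-positive macrophages, against 845, 1775 and 505 CPM in the others (1.11 ± 0.14, adjusted p = 0.000297), higher within each library but overlapping between them, and not called without the library block (adjusted p = 0.305). Tnip3, an inhibitor of NF-kappa B signalling, had 830.0, 970.1 and 787 against 470.0, 391 and 153 CPM (1.66 ± 0.23). CC and CXC chemokines were higher in 4 of 12 and lower in 3 (median 0.03). Ccl8, a ligand of several CC receptors, had 7.5, 3.29 and 5.42 against 111, 316 and 554 CPM (-6.03 ± 0.32, adjusted p = 8.64e-07), Ccl7, a CCR2 ligand, 440.0, 1609 and 552 against 2228, 4974 and 1324 CPM (-1.56 ± 0.16), and Ccl5 145, 456 and 179 against 46.1, 182 and 110.2 CPM (1.34 ± 0.17). Ccl7 and Ccl5 overlapped between libraries and were not called without the block.

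Trafficking receptors were higher in 7 of 15 and lower in 4 (median 0.55), with the hyaluronan receptor Cd44 at 765, 769 and 621 against 558, 374 and 261 CPM (1.09 ± 0.15; adjusted p = 0.0523 without the library block) and S1pr1, which guides exit from tissue, at 2.5, 10.7 and 6.78 against 49.3, 46.7 and 61.6 CPM (-2.55 ± 0.31). C-type lectins were higher in 4 of 15 and lower in 5 (median 0.14). Clec4b1 had 170.0, 277 and 209 CPM in Ccr2-positive macrophages, against 66.9, 66.4 and 63.7 CPM in the others (1.92 ± 0.16), and Clec10a, a galactose-type lectin, 99.996, 86.2 and 56.9 against 295, 320.3 and 247 CPM (-1.70 ± 0.15). Lineage transcription factors were higher in 7 of 22 and lower in 6 (median 0.26). Bhlhe40, a repressor of the basic helix-loop-helix family, had 452, 201 and 96.2 against 74, 65.3 and 31.6 CPM (2.10 ± 0.20, adjusted p = 6.02e-05), and Nfil3, Nr4a2 and Batf3 rose by 1.66 ± 0.22, 1.35 ± 0.17 and 1.26 ± 0.18 on the log2 scale, the first not called without the library block (adjusted p = 0.0735). Bhlhe41, a relative of Bhlhe40, and Spic, a regulator of iron-recycling macrophages, fell by 2.11 ± 0.43 and 2.84 ± 0.57 on the log2 scale.

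The remaining lists held fewer calls. Alternative activation genes were higher in 2 of 13 and lower in 2 (median -0.01), interferon-stimulated genes higher in 2 of 19 and lower in 3 (median 0.03), and proliferation genes higher in 1 of 18 and lower in 1 (median -0.49). Of 21 genes of the response to tissue dissociation, 1 was higher and 4 lower (median -0.15), with the immediate early gene Jun at 970.0, 329 and 732 against 1835, 1459 and 2599 CPM (-1.47 ± 0.19). The other 3 lower genes of that list, heat shock genes, were not called without replicate 2 (adjusted p between 0.295 and 0.361). Mki67, a gene of dividing cells, was not called (-0.32 ± 0.35).

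**Figure D4:**
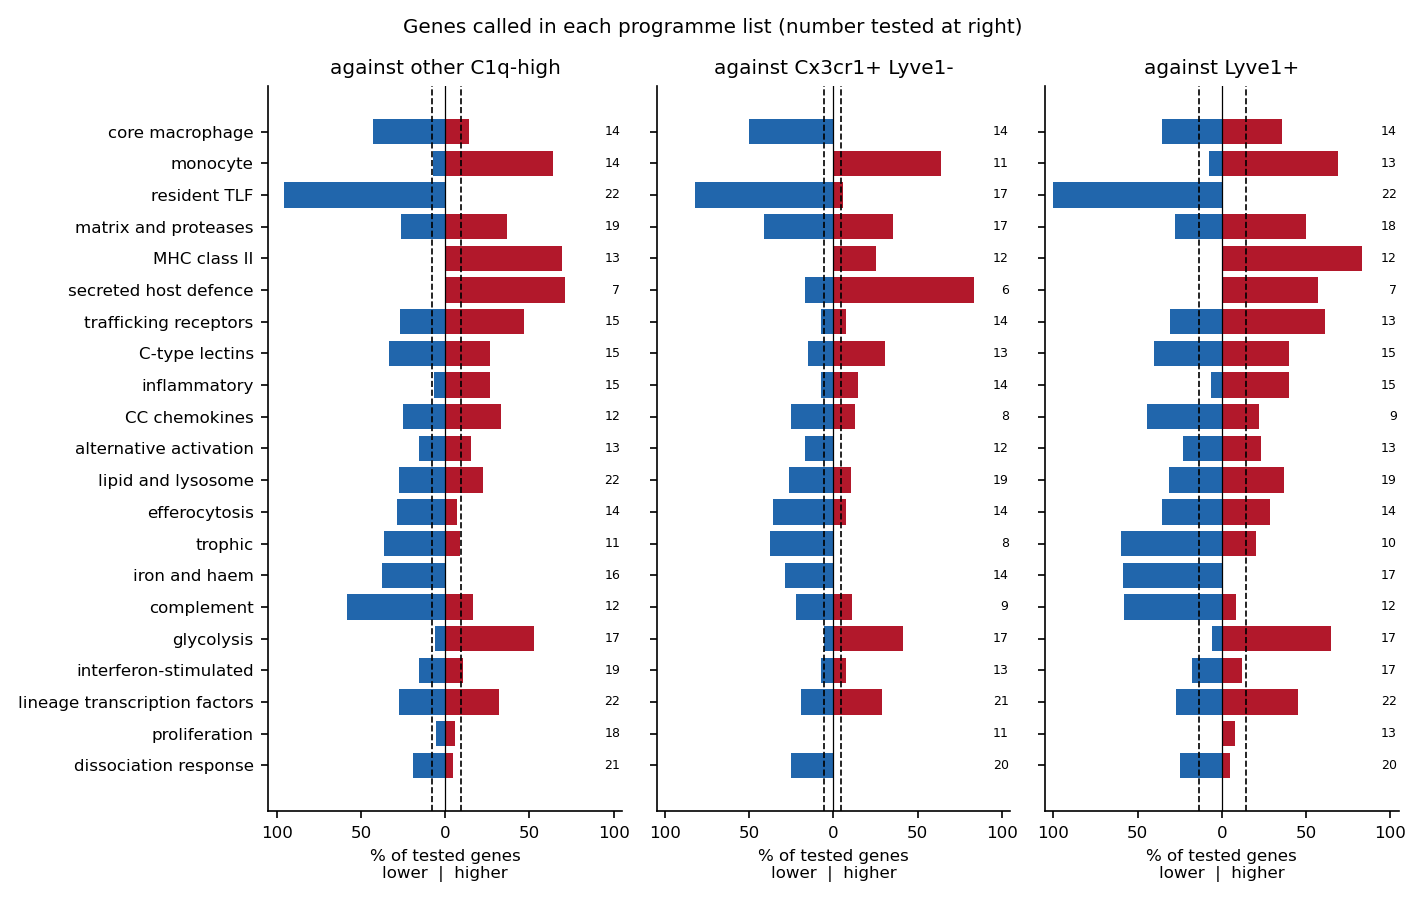
Percentage of the tested genes of each list called higher (to the right) or lower (to the left) in Ccr2-positive macrophages in the 3 comparisons, with the number tested at the right edge and dashed lines at the share of all genes called in that direction. MHC class II genes are called higher in 9 of 13 against other C1q-high barcodes and 10 of 12 against Lyve1-positive macrophages but in 3 of 12 against Cx3cr1-positive macrophages, whereas monocyte genes are called higher in all 3.

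Several genes outside the lists rose. Cd226, an adhesion receptor also known from MHC class II-high macrophages of mouse body cavities, had 45, 96.1 and 56.9 CPM in Ccr2-positive macrophages, against 14.9, 8.93 and 3.88 CPM in the others (3.30 ± 0.33, adjusted p = 9.31e-05). Cd2, an adhesion molecule best known from lymphocytes, had 52.5, 63.2 and 56.9 against 10.4, 6.14 and 6.83 CPM (3.18 ± 0.25), and Aldh1a2, which makes retinoic acid, 92.5, 59.1 and 54.2 against 15.6, 5.58 and 7.93 CPM (3.1 ± 0.23). Cd226, Cd2 and Aldh1a2 entered the test through the Ccr2-positive side alone. Ltb4r1, the leukotriene B4 receptor, and Ptger2, a prostaglandin E2 receptor, rose by 3.05 ± 0.25 and 2.85 ± 0.24 on the log2 scale, Cd24a by 2.88 ± 0.23, Hopx by 2.44 ± 0.21, and Flrt3 by 3.09 ± 0.33 (adjusted p = 0.0514 without replicate 2). The T cell genes Cd3d, Cd3e and Cd3g were at 0 in Ccr2-positive macrophages.

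The largest falls were in Cd38, an enzyme that cleaves NAD, with 2.5, 0.821 and 0 CPM in Ccr2-positive macrophages, against 74.7, 87.8 and 101 CPM in the others (-6.48 ± 0.44, adjusted p = 4.95e-06). Cd38 entered the test through the other C1q-high barcodes alone. Ednrb, the endothelin B receptor, had 12.5, 14 and 13.6 against 168, 308 and 288 CPM (-4.17 ± 0.20), and Vcam1, the ligand of the integrin VLA-4, 7.5, 23.8 and 19 against 112, 216 and 163 CPM (-3.08 ± 0.19). P2ry12, an ADP receptor, fell by 2.64 ± 0.28 on the log2 scale, Cmah and Npl, both of sialic acid metabolism, by 3.75 ± 0.37 and 3.28 ± 0.34, Prune2 by 2.89 ± 0.34 and the ribonuclease gene Rnase4 by 2.61 ± 0.16.

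Cx3cr1-positive macrophages lack Lyve1 and Timd4 by the same rule, so this comparison leaves those gates equal on both sides. Ccr2-positive macrophages had more Retnla, mostly higher monocyte genes and less Apoe than Cx3cr1-positive macrophages, while the class II chain H2-Ab1 was not called. Of 5756 genes tested by edgeR, 588 (10.2%) were called (292 without the library block), 265 (4.6%) higher and 323 (5.61%) lower, and 19.8% of genes did not overlap between the gates. When barcodes with 3 or more UMIs of other lineages were left out, 27 genes were called. Replicate 1 had only 16 barcodes in the Cx3cr1-positive gate. The median log2 fold change of all genes was 0.02.

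Retnla had 10742, 9945 and 7367 CPM in Ccr2-positive macrophages, against 287, 44.6 and 25.5 CPM in Cx3cr1-positive macrophages (6.97 ± 0.44, adjusted p = 9.96e-07). In lymphoid barcodes it had 53, 44.7 and 24.6 CPM, so in replicates 2 and 3 the Cx3cr1-positive level was that of the background. Its share at 2000 UMIs was 52.8% ± 15.9 in Ccr2-positive macrophages (64.8% unthinned), 8.01% ± 4.99 in Cx3cr1-positive macrophages (30.1%) and 9.28% ± 4.5 in lymphoid barcodes (26.3%). In Lyve1-positive macrophages the share was 55.0% ± 8.48. Ccl6 had 1355, 1592 and 1193 CPM, against 332, 211 and 302 CPM (2.32 ± 0.20), and Cfp 502, 448 and 375 against 70.2, 79.8 and 100.3 CPM (2.33 ± 0.22). Of 17 listed host defence genes 6 were tested, 5 higher and 1 lower. The markers Lyz1 and Ear2 were again among the higher, and both entered the test through the Ccr2-positive side alone. Of genes outside that list, Fn1, Il6, Fgfr1, Cd226 and Cd209a did so too, whereas Tmem119 entered through the Cx3cr1-positive side alone.

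Of 22 listed monocyte genes 11 were tested, 7 higher and 0 lower (median 1.79), and Napsa among them entered through the Ccr2-positive side alone. S100a6 had 2029.9, 2646 and 2536 CPM in Ccr2-positive macrophages, against 147, 545 and 159 CPM in Cx3cr1-positive macrophages (3.30 ± 0.31, adjusted p = 2.02e-05), S100a4 1175, 1491 and 1397 against 70.2, 322 and 41.9 CPM (3.59 ± 0.42) and Napsa 90.0, 77.2 and 90.8 against 6.38, 7.04 and 8.98 CPM (3.42 ± 0.36). F13a1 was not called (-0.25 ± 0.23). The resident programme was lower in 14 of 17 and higher in 1 (median -1.53), also with Lyve1 and Timd4 at 0 on both sides. Stab1 had 55, 64.9 and 82.7 against 415, 347 and 481 CPM (-2.57 ± 0.19, adjusted p = 3.71e-06), and the transcription factor Maf 217, 138 and 274 against 1206, 472 and 912 CPM (-1.96 ± 0.19). The 1 higher gene was Ccl24, an eosinophil chemokine (2.23 ± 0.37).

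H2-Ab1 and Cd74 were not called between these gates, which does not show that they are equal. H2-Ab1 had 6575, 6310.1 and 6514 CPM in Ccr2-positive macrophages, against 7404, 4087 and 6380.4 CPM in Cx3cr1-positive macrophages (0.18 ± 0.16, adjusted p = 0.577), and Cd74 18022, 21560.4 and 23136 against 17808, 16800.4 and 20941 CPM (0.19 ± 0.14, adjusted p = 0.466). Both overlapped between the gates. Of 12 class II genes 3 were higher, H2-DMb2 (2.22 ± 0.41), H2-DMb1 (0.84 ± 0.19) and the co-stimulator Cd80 (1.02 ± 0.27), and none was lower. H2-DMb2 entered this test too through the Ccr2-positive side alone. The H2-DMb1 call was lost without replicate 2 (adjusted p = 0.065) and without the library block, and that of Cd80 without replicate 2 (adjusted p = 0.134) or replicate 3 (adjusted p = 0.15) and without the library block.

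Apoe had 1742, 2766 and 2832 CPM in Ccr2-positive macrophages, against 17750.5, 9335 and 18845 CPM in Cx3cr1-positive macrophages (-2.59 ± 0.23, adjusted p = 1.48e-05). Glycolysis genes were higher in 7 of 17 and lower in 1 (median 0.65), and core macrophage genes lower in 7 of 14 and higher in 0 (median -0.59), with Csf1r at 490.0, 517 and 514 against 1091, 956 and 1000.3 CPM (-0.98 ± 0.16). Il1b was not called (-0.45 ± 0.20, adjusted p = 0.205). Ptgs2, the inducible cyclooxygenase, had 197, 179 and 108 against 715, 688 and 253 CPM (-1.67 ± 0.20), while Il6, an inflammatory cytokine, had 120.0, 90.4 and 71.8 against 12.8, 21.1 and 2.99 CPM (2.97 ± 0.41). Among transcription factors, Irf4 was higher at 92.5, 152 and 58.3 against 25.5, 30.5 and 18 CPM (1.99 ± 0.28) and Irf8 lower at 137, 78.9 and 108 against 274, 254 and 261 CPM (-1.33 ± 0.20). Both factors are known from the development of myeloid cells and dendritic cells.

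Fgfr1, a fibroblast growth factor receptor, had 157, 94.5 and 74.5 CPM in Ccr2-positive macrophages and 0 counts in Cx3cr1-positive macrophages, and was at least 41.2-fold higher. Cd226 also had 0 counts in Cx3cr1-positive macrophages and was at least 31.3-fold higher. Tmem119, known from microglia, had 7.5, 5.75 and 6.78 CPM, against 128, 77.5 and 44.9 CPM (-3.49 ± 0.37), and Pmepa1, a target and inhibitor of TGF-beta signalling, 19.999, 32 and 51.5 against 696, 279 and 288 CPM (-3.31 ± 0.32). Tgfbr2, a chain of the TGF-beta receptor, had 75, 61.6 and 65 against 223, 174 and 193 CPM (-1.53 ± 0.19). These 3 genes did not overlap between the gates.

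Against Lyve1-positive macrophages, Ccr2-positive macrophages had mostly higher class II and monocyte genes and a lower resident programme, while Retnla differed less and Ccl6 was not called. Of 7561 genes 2110 (27.9%) were called by edgeR (1224 without the library block), 1072 (14.2%) higher and 1038 (13.7%) lower in Ccr2-positive macrophages, 34.7% of genes did not overlap, and the median of all genes was -0.03. Class II genes were higher in 10 of 12 and lower in 0 (median 2.67). H2-Ab1 had 6575, 6310.1 and 6514 CPM in Ccr2-positive macrophages, against 1348, 1015 and 925 CPM in Lyve1-positive macrophages (2.78 ± 0.18, adjusted p = 2.15e-07). Retnla had 10742, 9945 and 7367 CPM, against 6331, 5388 and 5016 CPM (0.93 ± 0.16, adjusted p = 0.000775, lost without replicate 2 at 0.0569 and without the library block at 0.0652), and Ccl6 1355, 1592 and 1193 against 1223, 1497 and 1561 CPM (0.14 ± 0.17, adjusted p = 0.591).

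Of 15 inflammatory genes tested 6 were higher, 1 was lower and 8 were not called (median 0.58). Il1b had 1195, 3595 and 1235 CPM in Ccr2-positive macrophages, against 386, 551 and 103 CPM in Lyve1-positive macrophages (2.86 ± 0.29), while Osm, a cytokine of the interleukin 6 family, was the lower gene (-1.50 ± 0.22). The lipase gene Lpl had 1672, 333 and 228 CPM, against 29, 7.88 and 7.17 CPM (5.56 ± 0.23). Cytip, a regulator of leukocyte adhesion, had 237, 309 and 92.2 against 5.81, 6.31 and 3.02 CPM (5.52 ± 0.25), and the potassium channel Kcnn4 147, 101 and 97.6 against 2.9, 4.73 and 0.378 CPM (5.48 ± 0.39). Monocyte genes were higher in 9 of 13 and lower in 1 (median 2.65), glycolysis genes higher in 11 of 17 and lower in 1 (median 0.94), and iron genes lower in 10 of 17 and higher in 0 (median -0.83). The resident programme, which follows Lyve1, was lower in 22 of 22 (median -3.54). Ednrb had 12.5, 14 and 13.6 against 555, 576 and 564 CPM (-5.20 ± 0.23) and Siglech, a sialic acid-binding lectin, 0, 5.75 and 1.36 against 148, 78 and 83.8 CPM (-4.56 ± 0.42).

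**Figure D5:**
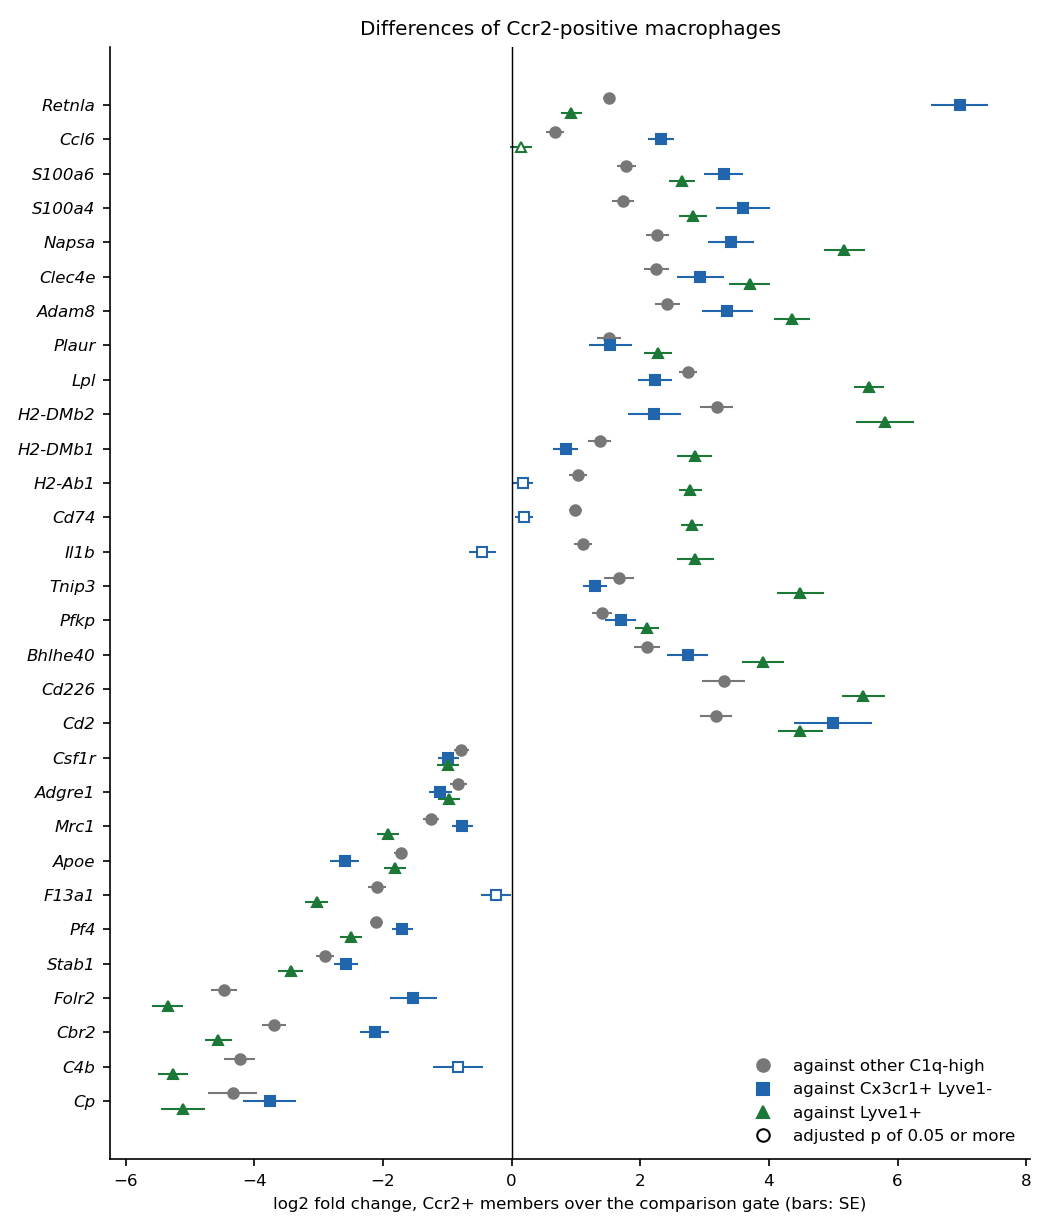
Log2 fold changes with SE bars of 30 genes in Ccr2-positive macrophages over other C1q-high barcodes (grey circles), Cx3cr1-positive Lyve1-negative (blue squares) and Lyve1-positive macrophages (green triangles), with open symbols for an adjusted p of 0.05 or more and no symbol where the comparison gate had 0 counts. Retnla lies furthest from 0 against Cx3cr1-positive macrophages (6.97), while H2-Ab1, Cd74 and Il1b are near 0 against them and between 2.78 and 2.86 against Lyve1-positive macrophages.

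Lyz1 and Fn1 were highest where Ccr2 was highest. Among barcodes that met the other limits, mean Lyz1 was 28.0, 65.6, 279 and 801 CPM with 0, 1, 2 to 3 and 4 or more UMIs of Ccr2, and mean Fn1 was 129, 98.2, 277 and 1201 CPM. Apoe was lowest at the highest step, with 10975, 5845, 6371 and 1896 CPM, and Stab1 had 405, 263, 162 and 53.2 CPM. H2-Ab1 was at 4283, 5877, 5089.7 and 6543 CPM. The steps held 96, 36, 53 and 136 barcodes, with none of the 36 in replicate 1, and are given without a test because Ccr2 chose the members. Of the 53, only 3 were in replicate 1, with Lyz1 and Fn1 at 0 CPM. In replicate 3 Lyz1 was at 90.8 CPM with 1 UMI and 84.4 CPM with 2 to 3. The steps also differed in depth: medians were 3976.5, 8081 and 5401 UMIs in replicates 1, 2 and 3 with 0 UMIs of Ccr2. With 4 or more they were 11274.5, 14753 and 10024 UMIs. Just inside the limit, 27 barcodes had 2 UMIs of Ccr2, with Lyz1 at 0 CPM in replicate 1 (2 barcodes), 1314 in replicate 2 and 45.3 in replicate 3. Just outside, 36 barcodes had 1 UMI, with Lyz1 at 40.4 CPM in replicate 2 and 90.8 in replicate 3. Mmp12 of these 36 was at 219 and 254 CPM in replicates 2 and 3, above the 124 and 81.3 CPM of all members there.

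The limit on Cx3cr1 divided barcodes that shared Ccr2. The 138 members with 0 UMIs of Cx3cr1 had 866 CPM of Lyz1 and 1242 CPM of Fn1 on average, the 51 with 1 UMI had 260 and 577 CPM, and the 36 barcodes just outside with 2 UMIs had 90.4 and 326 CPM. These 36 belong to the 206 barcodes that met every other limit and carried 2 or more UMIs of Cx3cr1. Mmp12 of the 206 was at 138, 147 and 123 CPM in replicates 1, 2 and 3, against 1192, 124 and 81.3 CPM in the members. Outside replicate 1 it was thus no lower beyond this limit. With all 206 admitted, the gate held 81, 152 and 162 barcodes and 29.8% of C1q-high barcodes on average. A further 60 barcodes carried Ccr2 together with 2 or more UMIs of Lyve1. Their Fn1 was at 82.4, 170 and 26.8 CPM and their Folr2 at 282, 543 and 547 CPM in replicates 1, 2 and 3, against Fn1 at 1637, 1049.8 and 615 CPM and Folr2 at 5.00, 15.6 and 20.3 CPM in the members. At the C1q limit, the 14 members with 10 to 14 UMIs had 2428 CPM of Fn1 on average and the 14 barcodes with 5 to 9 UMIs just outside had 1426 CPM.

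The summed level of dendritic cell markers was higher in Ccr2-positive macrophages of each library, although several were at 0. The list of 14 conventional dendritic cell genes summed to 121 to 412 CPM in Ccr2-positive macrophages and 86.7 to 138 CPM in the other C1q-high barcodes. Clec9a, Itgae, Btla and Cd7 were at 0, and Flt3, the dendritic growth factor receptor, and Zbtb46, a dendritic transcription factor, had 5.00, 5.75 and 9.49 and 5.00, 7.39 and 2.71 CPM, too low for the test. Of the 4 genes tested 3 were higher and 1, Kmo, an enzyme of tryptophan breakdown, was lower (-1.81 ± 0.52). The chemokine Ccl17 had 92.5, 141 and 5.42 CPM in Ccr2-positive macrophages, against 1.95, 9.3 and 8.67 CPM in the others (3.29 ± 0.60), and was higher in replicates 1 and 2 alone. The chemokine Ccl22 had 62.5, 87.1 and 9.49 against 13.6, 12.1 and 1.11 CPM (2.82 ± 0.26). Cd209a made up much of the sum, with 192, 148 and 81.3 CPM against 93.5, 69 and 48.5 CPM (1.14 ± 0.14), and 19 barcodes held 93.1% of its UMIs. In replicate 1, 1 barcode held 74 of its 77 UMIs, and 29 of 33 members held none. After thinning to equal depth, Cd209a was found in 0%, 10.6% and 9.86% of members of replicates 1, 2 and 3. In the other C1q-high barcodes its shares were 10.4%, 8.35% and 6.32%, so members had the higher share in replicates 2 and 3 alone. Cd209a was not called in thinned sums and stood at -0.05 with any number of Cx3cr1 UMIs admitted. Against Cx3cr1-positive macrophages, with 0, 9.39 and 0 CPM, its log2 fold change was 5.13 ± 0.50. The part of dendritic cell RNA in the class II and Cd209a results was not tested, and without the 17 members that held dendritic RNA the comparison with the other C1q-high barcodes called 1305 genes.

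T and NK cell genes summed to 0.821 to 5.42 CPM in Ccr2-positive macrophages and 14.3 to 23.1 CPM in the others, with 9 of 12 at 0. Granulocyte genes came to 14 to 23 and 33.3 to 55.7 CPM, mast cell genes to 4.07 to 11.5 and 12.2 to 36.5 CPM, B or plasma cell genes to 99.996 to 113 and 182 to 281 CPM, and ILC2 genes, of innate lymphoid cells, to 201 to 260 and 146 to 450 CPM. Fibroblast genes, of cells that a CD45 sort should remove, came to 134 to 340.0 and 148 to 301 CPM, smooth muscle genes to 7.5 to 54.2 and 55.2 to 207 CPM, and stomach epithelium genes to 2.5 to 19 and 14.9 to 66.1 CPM. Endothelial genes came to 4.93 to 15 and 3.90 to 6.83 CPM, and genes of glia, neurons or interstitial cells to 0 to 2.71 and 7.44 to 8.44 CPM. Among these lists and those of monocytes and dendritic cells, the monocyte and dendritic lists alone were higher in Ccr2-positive macrophages of every library. The higher monocyte sum rested on S100a6 and S100a4.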

How the data were processed

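The authors deposited raw UMI counts, 1 matrix of 31053 genes by barcodes for each of 3 libraries, made with a Chromium 3′ v3 kit per the labels' protocols. Counting used Cell Ranger 3.1 and mm10, per the submitters' processing notes; the version written in the matrices, per the file headers, was 3.0.0 in replicate 1 but 3.1.0 in both others. The rule, its markers and the gene lists were chosen with earlier results of these data known, so no list stands as independent support.

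Counts were summed per library and gate, giving 6 profiles per comparison, and tested two-sided with glmQLFit and glmQLFTest of edgeR 4.0.16 (R 4.3.3) after filterByExpr and TMM scaling, with Benjamini-Hochberg adjustment and the library as a block, because members and comparison barcodes come from the same library. Standard errors are the log2 fold change over the root of F. DESeq2 1.42.0 was an alternative. CPM are per 1000000 UMIs of the gate. Barcodes were thinned to 2000 UMIs to compare shares of barcodes with a UMI. Intervals are exact Clopper-Pearson at 95%. Doublets were scored with scrublet in scanpy 1.11.5, kept in the main sums and removed as an alternative at 0.8% of barcodes per 1000 barcodes; 8 members were among them. No pair of libraries was a copy, since their counts differed by a chi-square of 37.5 to 97.1 for each degree of freedom.

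Genes were named by rule: the gate genes and markers, up to 4 called genes per list (5 against the other C1q-high barcodes where 8 or more were called) with 1 direction in all libraries and the lowest adjusted p, the 8 largest changes each way outside the lists with at least 50 CPM, and a fixed set that included H2-Ab1, Il1b, Csf1r and Cd209a. Other genes named from the lists, and the genes compared within the Ccr2-positive macrophages and in the plot of fold changes, were chosen after their values were seen. A fold against 0 counts is a bound against 3 counts. Some genes that these rules name are not reported here.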

Additional observations from a re-analysis of the deposited data

How the results depend on the processing

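Of 1413 genes called against the other C1q-high barcodes, DESeq2 called 789, thinned sums 418 and the gate with any number of Cx3cr1 UMIs 2295, and without each replicate in turn 482 (without replicate 2) to 1952 were called, with 901 without replicate 3. The same alternatives, where run, gave 276 (DESeq2) and 113 (thinned) of 588 genes against Cx3cr1-positive macrophages, with 436 to 607 without a replicate, and 1230 and 725 of 2110 against Lyve1-positive macrophages, with 1229 (without replicate 2) to 2816. Pairing came from the design, and the fit without the replicate block called 515, 292 and 1224 genes. Leaving out barcodes with 3 or more UMIs of other lineages kept 44 members and called 93, 27 and 430 genes, and leaving out those with lymphoid, mast or fibroblast UMIs kept 187 and called 1441. That last alternative, the one without barcodes found in several libraries (1337) and the one with only others of 0 Ccr2 UMIs (1930) were chosen after seeing the data. The share of C1q-high barcodes was 29.8% with any number of Cx3cr1 UMIs. Of 2268 values of 111 named genes in the first comparison 2098 kept direction and call and 5 turned, and 9 of 927 and 4 of 1037 turned in the others. With any number of Cx3cr1 UMIs Ccl6 was -0.17, Itgb5 0.055, Rrm2 0.57 and Cd209a -0.046. Without other-lineage barcodes Ccl5 was -0.80, and against Cx3cr1-positive macrophages Trem2 0.12, Ctsb 0.17, H2-Ab1 -0.019, Cd74 -0.082, Lyz2 0.33 and Il1b 0.31. There H2-Ab1 ran from -0.015 (without replicate 2) to 0.29 and Lyz2 from -0.30 to 0.059 (without replicate 3) over the left-out replicates, and Lyz2 was 0.030 in thinned sums. Against Lyve1-positive macrophages Bst2 was 0.0072, Ier3 0.25 and Cd209a -1.66 without other-lineage barcodes, and Cd209a -0.23 in thinned sums. The cause of these turns was not tested, but the thinned and other-lineage sums held fewer UMIs. The 16 Cx3cr1-positive barcodes of replicate 1 limit that comparison, and the 33 members of replicate 1 limit Mmp12.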
